A study of Mus musculus with 13 samples.

Results

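The genes described here are 10 members of the insulin-like growth factor (IGF) system that had a probe on an Illumina mouse bead array: the ligands Igf1 and Igf2, the receptors Igf1r and Igf2r, and the binding proteins Igfbp2 to Igfbp7. They were chosen by gene symbol and are represented by 14 of 25697 probes. Igf2r, Igfbp2, Igfbp4 and Igfbp7 had 2 probes each. All 10 were among the 10923 genes tested, of 16593 genes named on the array, but Igfbp6 entered only because its probe was detected on the MEF array.

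The study set neural stem cells induced from mouse embryonic fibroblasts beside neural stem cells and progenitors of other origin, on 13 arrays of 7 groups. The groups were iNSC in vivo (induced cells after grafting to the brain of adult mice, labelled with the number 14 and no unit of time, 1 array), NSC in vivo (neural stem cells labelled in vivo, with no transplantation named, 1 array), iNSC (cultured cells induced from fibroblasts, 3 clones), ESC NPC (neural progenitor cells differentiated from embryonic stem cells, 3 clones), NSC (cultured neural stem cells, 3 clones), MEF (mouse embryonic fibroblasts, 1 array) and ESC (embryonic stem cells, 1 array). All cells were of the C3H strain. The labels used here give no age, no induction factors and no gate for the in vivo cells. Each clone had 1 array, so p-values measure the spread between clones, and a group of 1 array borrows that spread.

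IGFs are small secreted hormones that drive growth, survival and metabolism. Igf1r is the tyrosine kinase that transmits their signal through phosphatidylinositol 3-kinase, Akt and MAP kinases, whereas Igf2r, the cation-independent mannose 6-phosphate receptor, takes up Igf2 for lysosomal breakdown. The binding proteins hold most IGF outside cells and can limit it, store it or deliver it. In the brain, Igf2 is known from the meninges, the choroid plexus and blood vessels, Igf1 from neurons and microglia, and Igfbp7 from vessel walls, and IGFs sustain neural stem cells in culture. Igf2 and Igf2r are imprinted in mice, with Igf2 expressed from the paternal and Igf2r from the maternal allele in most tissues.

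Igf2, Igfbp4, Igfbp5 and Igfbp7 rose together in ESC NPC against ESC, as described below, and the 120 bases before an annotated start of each are shown for that reason. They come from RefSeq (GRCm38.p6), in which all 10 members had at least 1 start and 14 starts in all. Capitals mark a TATA box (TATAAA) or a GC box (GGGCGG), each searched on both strands (CCGCCC is a GC box on the other strand), and the Igf2 window is the most downstream of its 4.
Igf2, chr7:142657497-142657616, minus strand: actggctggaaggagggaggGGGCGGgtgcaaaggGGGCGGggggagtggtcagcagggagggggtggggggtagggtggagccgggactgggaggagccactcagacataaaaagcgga
Igfbp4, chr11:99041124-99041243, plus strand: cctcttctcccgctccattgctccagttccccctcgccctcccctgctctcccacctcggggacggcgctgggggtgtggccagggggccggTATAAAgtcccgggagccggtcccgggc
Igfbp5, chr1:72874866-72874985, minus strand: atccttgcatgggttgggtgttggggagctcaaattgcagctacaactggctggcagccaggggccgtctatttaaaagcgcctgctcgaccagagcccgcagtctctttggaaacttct
Igfbp7, chr5:77408046-77408165, minus strand: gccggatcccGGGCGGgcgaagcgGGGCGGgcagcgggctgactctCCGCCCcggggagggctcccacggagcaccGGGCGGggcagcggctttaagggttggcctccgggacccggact
The 4 windows differed in these letters. Igfbp4 held the TATA box, 28 bases before its start, Igf2 held 2 GC boxes and Igfbp7 held 4, and neither motif was found in the Igfbp5 window. Over the members, 1 of 14 windows had a TATA box and 6 had a GC box, against 6.34% and 26.5% of 32851 windows of the same length in the table. A match is a run of letters, not a measured site.

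Between 40.8% and 49.9% of probes were detected on the cultured arrays, against 26.2% on iNSC in vivo and 26.7% on NSC in vivo. A probe counts as detected where the deposited detection p is under 0.01. Levels below are normalized log2 intensities of 1 probe per gene and are compared between arrays, never between genes. The MEF and ESC intensities carry more decimals than the rest (0.156% of their values have at most 1 decimal, against 100% on the other 11 arrays), so these arrays may have been exported differently. Xist, transcribed from the inactive X chromosome, was detected on the NSC arrays (8.99 to 9.18) and on MEF (8.22) and on no other array, while the Y-linked Eif2s3y was detected on all arrays except those. Kdm5d, also Y-linked, was detected on the 3 iNSC arrays (up to 7.17) and on no other. By Xist and Eif2s3y the NSC arrays differ from the iNSC and from the ESC NPC, the MEF array from the iNSC, and the NSC in vivo array from the NSC. In each of these comparisons the group and the sex of the cells cannot be told apart.

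Markers of other cell types, from lists of textbook genes, moved with several groups. The in vivo arrays detected 7 of 7 microglia and macrophage genes, with a summed intensity of 7017 on iNSC in vivo and 5132 on NSC in vivo, against 144.8 to 151.7 in iNSC and 144.9 to 152.9 in NSC. Endothelial genes were detected in 5 of 6 on iNSC in vivo (Cdh5 was not) with a sum of 2926, and in 6 of 6 on NSC in vivo with a sum of 15640, against 214.5 to 239.9 in iNSC and 125.6 to 153.1 in NSC. Among neural stem and radial glia genes, 4 of 9 on iNSC in vivo and 3 of 9 on NSC in vivo were detected, against 9 of 9 on each iNSC and NSC array. On iNSC in vivo and NSC in vivo, Slc1a3 (13.76 and 13.80), Sox21 (8.31 and 9.36) and Vim (8.50 and 7.36) were detected. Sox2, Nes, Fabp7, Hes5 and Olig2 were not, so the markers of the labelled cell type were detected there only in part. The same arrays detected 5 of 5 oligodendrocyte lineage genes, with sums of 8820 and 18090, against 622.7 to 979.6 in iNSC and 2093 to 6804 in NSC. They detected 3 of 6 neuron genes each, against 3 to 5 on the iNSC and NSC arrays. Of 6 astrocyte genes they detected 5 and 4, against 6 on each iNSC and NSC array. The lowest detected level on the in vivo arrays was 6.50 and 6.44, above the level of Olig2 in NSC (6.11 to 6.25). The ESC NPC arrays detected 8 of 8 pluripotency genes (summed intensity 5855 to 6401) and 5 of 8 fibroblast and meningeal genes (2927 to 3059), against 0 or 1 of 8 (174.3 to 180.1) and 2 of 8 (294.3 to 379.3) on the NSC arrays. In bulk arrays fewer cells of a type and less RNA per cell cannot be told apart.

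**Figure D1:**
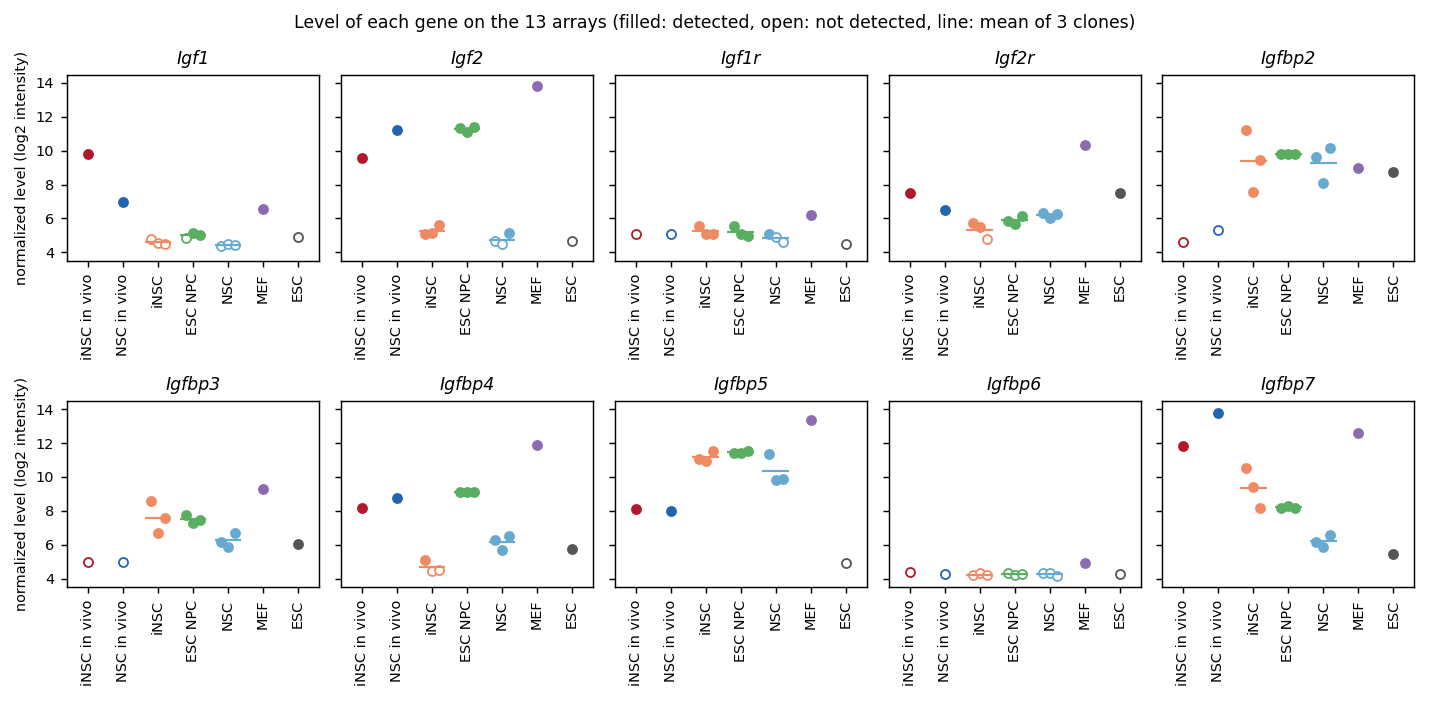
Normalized level (log2 intensity) of each of the 10 genes on the 13 arrays, by group, with filled points where the probe was detected, open points where it was not, and a line at the mean of 3 clones. Igf2 lies above 9.5 on both in vivo arrays, ESC NPC and MEF and below 5.6 in iNSC, NSC and ESC, while Igfbp2 spreads over several log2 units between clones.

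Igf2, the fetal growth factor, had the widest range of group means of any member, 9.15 log2 units. Its level was 9.58 on iNSC in vivo, 11.25 on NSC in vivo, 5.07, 5.14 and 5.58 in iNSC, 11.34, 11.13 and 11.38 in ESC NPC, 4.64, 4.50 and 5.11 in NSC, 13.81 on MEF and 4.66 on ESC. The values fell into a high set (MEF, ESC NPC and the in vivo arrays) and a low set near the detection floor (iNSC, NSC and ESC), with no overlap. The probe was detected on every iNSC array, on 1 of 3 NSC arrays and not on ESC. ESC NPC and NSC in vivo, neighbours in this order, differed by 0.03, within the pooled SD of 0.23, and NSC and ESC by 0.09.

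Igf1, the ligand of postnatal growth, was seen in fewer groups. Its level was 9.82 on iNSC in vivo and 6.97 on NSC in vivo. The probe was detected on no iNSC array (4.78, 4.56 and 4.47), on 2 of 3 ESC NPC arrays (4.85, 5.15 and 4.99, the first undetected), on no NSC array (4.35, 4.47 and 4.40), on MEF (6.54) and not on ESC (4.91). Igf1 thus stood clear of background on the in vivo arrays and MEF and near the floor in the other cultures.

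The signalling receptor Igf1r was not detected on iNSC in vivo or NSC in vivo, where a level under 6.50 and 6.44 is below the lowest detected one, so these arrays have no place in its order. It read 5.55, 5.10 and 5.10 in iNSC, 5.55, 5.08 and 4.97 in ESC NPC, and 5.07, 4.91 and 4.61 in NSC, where 1 of 3 arrays detected it. Among the cultures it was highest on MEF at 6.22, and it was undetected on ESC at 4.51. The means of iNSC and ESC NPC differed by 0.05, within the pooled SD of 0.237, and those of ESC NPC and NSC by 0.34.

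Igf2r, the clearance receptor for Igf2, was 7.52 on iNSC in vivo and 6.47 on NSC in vivo. In culture it was 5.75, 5.48 and 4.78 in iNSC, where 2 of 3 arrays detected it, 5.87, 5.69 and 6.11 in ESC NPC, and 6.33, 6.04 and 6.28 in NSC. It was highest on MEF at 10.35 and was 7.53 on ESC. All 3 iNSC arrays lay below all 3 NSC arrays.

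Its second probe was also highest on MEF and ESC but did not keep the order of the other cultures. On it ESC NPC averaged 5.68, against 5.39 in NSC, the opposite order to the first probe, and iNSC clone 2 (5.39) lay above NSC clones 2 and 3 (both 5.30). It read 4.63 on iNSC in vivo and 5.19 on NSC in vivo, undetected on both, and 10.21 on MEF and 7.17 on ESC. Across the 13 arrays the probes correlated at r = 0.848, with the widest gap of 2.89 on iNSC in vivo, so every in vivo statement on Igf2r rests on 1 of 2 probes.

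Igfbp2, a main binding protein of the fetal brain and of cerebrospinal fluid, varied widely between clones. The probe was undetected on iNSC in vivo (4.60) and NSC in vivo (5.33). The level was 11.23, 7.54 and 9.43 in iNSC clones 1 to 3, a 12.9-fold range, 9.81, 9.83 and 9.81 in ESC NPC, a 1.01-fold range, and 9.65, 8.10 and 10.13 in NSC, a 4.09-fold range. MEF stood at 9.0 and ESC at 8.72. The second probe showed the same spread, with 11.38, 7.32 and 9.30 in iNSC, and correlated with the first at r = 0.988 over 13 arrays. The pooled SD of 1.00 log2 units exceeded every step between the group means of the cultures.

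Igfbp3, the main IGF carrier of blood plasma, was not detected on iNSC in vivo (4.98) or NSC in vivo (4.97). It was 8.57, 6.67 and 7.57 in iNSC, 7.76, 7.30 and 7.45 in ESC NPC, 6.18, 5.89 and 6.70 in NSC, 9.32 on MEF and 6.06 on ESC. The lowest iNSC clone lay below the highest NSC clone, so those groups overlapped, whereas every ESC NPC clone lay above every NSC clone.

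Igfbp4, a binding protein that restrains IGF action until pappalysin cleaves it, followed the order of Igf2 at the top. Its level was 8.16 on iNSC in vivo, 8.78 on NSC in vivo, 5.11, 4.42 and 4.49 in iNSC with detection on 1 of 3 arrays, 9.11, 9.14 and 9.11 in ESC NPC, 6.27, 5.67 and 6.49 in NSC, 11.86 on MEF and 5.74 on ESC. MEF, ESC NPC and the in vivo arrays were high, and iNSC was lowest. The second probe was undetected on iNSC in vivo (6.37), NSC in vivo (5.41) and all 3 iNSC arrays, and was detected on the ESC NPC, NSC and MEF arrays. The probes correlated at r = 0.896, and their widest gap, 3.38, was on NSC in vivo.

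Igfbp5, which binds extracellular matrix and bone mineral, was high in every culture but ESC. It was 8.11 on iNSC in vivo and 7.96 on NSC in vivo. It read 11.07, 10.97 and 11.53 in iNSC, 11.44, 11.41 and 11.53 in ESC NPC, 11.37, 9.79 and 9.87 in NSC and 13.35 on MEF, and was undetected on ESC at 4.93. NSC clone 1 lay among the iNSC and ESC NPC clones, above the other two NSC clones.

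Igfbp6, which prefers Igf2 over Igf1, was detected on MEF alone (4.90), with 4.17 to 4.36 on the other 12 arrays. Igfbp7, a secreted relative that binds IGFs weakly, was detected on all 13 arrays. It was 11.81 on iNSC in vivo, 13.79 on NSC in vivo, 10.53, 9.43 and 8.14 in iNSC, 8.18, 8.31 and 8.15 in ESC NPC, 6.15, 5.84 and 6.58 in NSC, 12.59 on MEF and 5.42 on ESC. Every iNSC clone lay above every NSC clone, and iNSC clones spanned 2.4 log2 units. The second Igfbp7 probe was detected on 0 of 13 arrays and is not used.

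**Figure D2:**
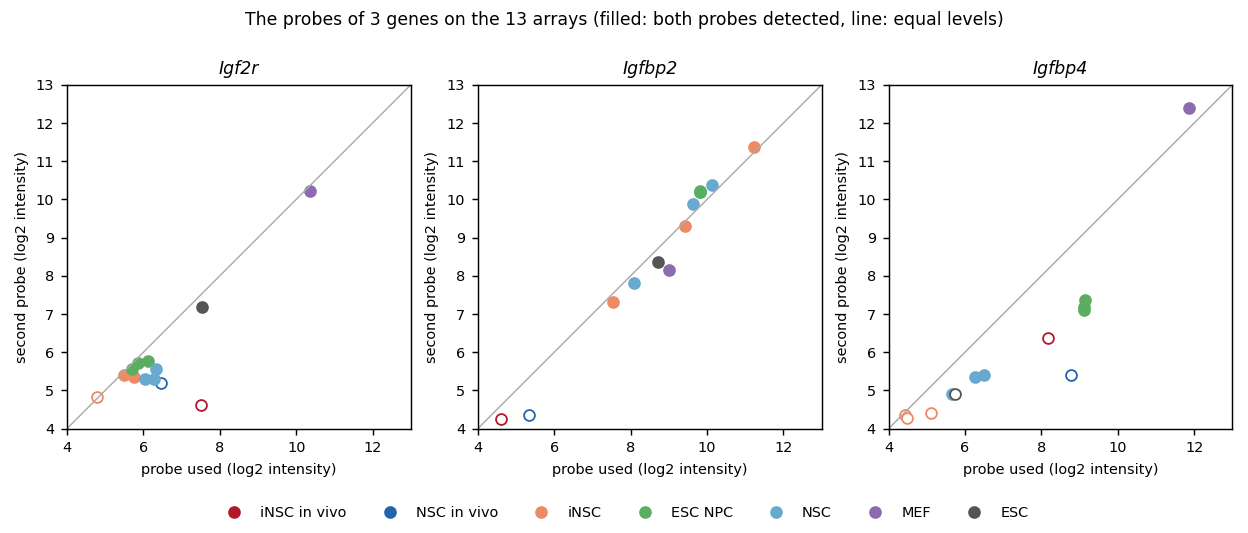
Normalized level (log2 intensity) of the second probe against the probe used for Igf2r, Igfbp2 and Igfbp4, 1 point per array, coloured by group, filled where both probes were detected, with a line at equal values. The Igfbp2 probes run together, while the iNSC in vivo point of Igf2r and the NSC in vivo point of Igfbp4 fall farthest below the line.

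Which clone was highest or lowest was counted over the members. Of the 8 members detected in iNSC, clone 1 was highest for 6 (Igf1r, Igf2r, Igfbp2, Igfbp3, Igfbp4 and Igfbp7), against 34.8% of all 8219 genes detected in iNSC. Of the 8 members detected in NSC, clone 2 was lowest for 7, all but Igf1r, against 32.3% of 8324 genes. In ESC NPC no clone was highest for more than 4 of 9 members. These counts describe the arrays and carry no test.

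The first comparison asks how induced cells differ from cultured neural stem cells. In iNSC against NSC, Igfbp7 was 9.06-fold higher (difference 3.18 ± 0.49 log2, SE, n = 3 each, adjusted p = 0.0016 by limma) and Igfbp3 2.54-fold higher (1.35 ± 0.41, adjusted p = 0.0492). Igfbp4, detected on 1 of 3 iNSC arrays, was at least 2.20-fold lower (-1.47 ± 0.23 log2, adjusted p = 0.0019), and Igf2r, detected on 2 of 3, at least 1.80-fold lower (-0.88 ± 0.23, adjusted p = 0.0245). A bound of this kind sets the brighter group against the lowest detected level of each array on which the dimmer group did not detect the probe. So 2 of 10 members rose, where 10.3% of all 10923 genes did, and 2 fell, where 9.42% did. Igf2 (0.52 ± 0.19), Igf1r (0.39 ± 0.19), Igfbp5 (0.85 ± 0.37) and Igfbp2 (0.11 ± 0.82) did not pass the threshold, and Igf1 and Igfbp6 were detected in neither group.

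Of these calls, those of Igfbp7 and Igfbp4 held under every alternative run. Igfbp3 lost its call under 9 of 17 alternatives (adjusted p up to 0.127), among them leaving out iNSC replicate 1, where its difference was 0.86. Igf2r lost its call under 6 of 17, which were leaving out NSC replicate 1 (adjusted p = 0.0774) or 3 (0.0548), the deposited values (0.0503), the mean of its probes (0.0761), a fit of only these groups (0.0701) and its second probe alone (-0.20, 0.457). With the clone number as a block Igf2 (adjusted p = 0.0211) and Igf1r (0.0341) were called higher, making 6 members. Astrocyte markers moved alongside, with 4 of 6 higher and 1 lower, and oligodendrocyte lineage markers with 4 of 5 lower. Neuron markers fell in 3 of 6 with 0 higher, and neural stem and radial glia markers rose in 2 of 9 and fell in 2. The part of these lists in the result was not tested.

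The second comparison, ESC NPC against NSC, sets a pluripotent route to neural progenitors beside the same NSC arrays. Igf2, detected on 1 of 3 NSC arrays, was at least 80.5-fold higher (6.54 ± 0.19 log2, n = 3 each, adjusted p = 7.1e-09), with all 3 ESC NPC arrays more than 6 log2 units above every NSC array. Igfbp4 was 7.86-fold higher (2.98 ± 0.23, adjusted p = 5.0e-06), Igfbp7 4.07-fold (2.02 ± 0.49, adjusted p = 0.0056), Igfbp3 2.37-fold (1.25 ± 0.41, adjusted p = 0.0269) and Igfbp5 2.17-fold (1.12 ± 0.37, adjusted p = 0.0263). For Igf1, which no NSC array detected, the rise was at least 1.08-fold. Thus 6 of 10 members rose, beside 27.8% of all genes, and 0 fell, beside 29.6%.

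Igf2, Igfbp4, Igfbp7 and Igf1 kept their calls under every alternative. Under scaling of each array by its median instead of its quantiles Igfbp3 (adjusted p = 0.108) and Igfbp5 (0.113) lost theirs, and Igf2r was called lower (-0.69, adjusted p = 0.0449). That scaling shifted the median of all genes by -0.17 here, and rises made up 32.3% of all called genes, against 48.4% with quantiles. The calls of Igfbp3 and Igfbp5 were also lost with no detection filter (adjusted p = 0.0534 and 0.0517) and when some single clones were left out, Igfbp3 without NSC replicate 1 or 2 or ESC NPC replicate 1 or 3 and Igfbp5 without NSC replicate 2 or 3 or any ESC NPC clone. With the clone number as a block Igf1r was called higher (0.34, adjusted p = 0.0223), making 7 members. Fibroblast and meningeal markers rose in 6 of 8, choroid plexus markers in 4 of 4, and endoderm and mesoderm markers in 4 of 6 in the same comparison, and Col1a1, Col1a2 and Pdgfrb of the first list were undetected in ESC NPC. Neural stem and radial glia markers fell in 7 of 9 with 0 higher, with sums of 6720 to 7554 in ESC NPC, against 24180 to 26330 in NSC. Astrocyte markers fell in 6 of 6 and oligodendrocyte lineage markers in 4 of 5. Neuron markers fell in 3 of 6 and rose in 1. The part of these lists in the rise of Igf2 and Igfbp4 was not tested.

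The same contrast seen from the induced cells gave a short list. In iNSC against ESC NPC, Igf2 (-6.02 ± 0.19 log2, adjusted p = 1.3e-08) and Igfbp4 (-4.44 ± 0.23, at least 17.3-fold, adjusted p = 3.4e-07) fell, and Igf1, undetected in iNSC, was at least 1.05-fold lower (adjusted p = 0.0131). These 3 of 10 members compare with 28.9% of all genes lower, and 0 members were higher, beside 31.4% of genes. Igf1 lost its call without iNSC replicate 3 or ESC NPC replicate 2 (adjusted p = 0.0515 and 0.0538). Igfbp7 was 1.15 ± 0.49 higher with an adjusted p of 0.0657, and was called without iNSC replicate 3 (adjusted p = 0.0018) and with median scaling (0.015), which shifted the median of all genes by 0.15 and gave 65.6% rises among called genes, against 52.1% with quantiles. Igfbp3 (0.10 ± 0.41) and Igfbp5 (-0.27 ± 0.37) did not pass the threshold. This comparison shares the iNSC and ESC NPC arrays with those before it, so its values are not independent of theirs.

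**Figure D3:**
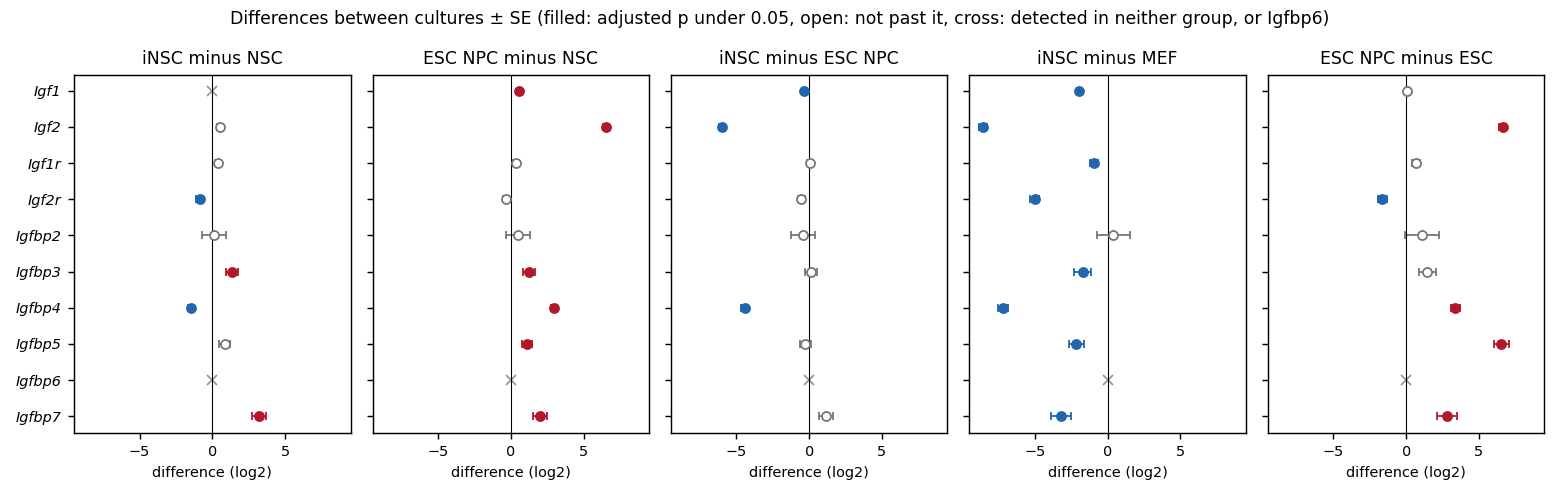
Difference in log2 level ± SE of the 10 genes in 5 comparisons of cultures, as first group minus second, with filled points past an adjusted p of 0.05, open points not past it and crosses at 0 where neither group detected the gene and for Igfbp6. Igf2 and Igfbp4 lie right of 0 in ESC NPC minus NSC and ESC NPC minus ESC and left of 0 in iNSC minus ESC NPC and iNSC minus MEF.

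Against the fibroblasts from which such cells are induced, the system was lower almost throughout. In iNSC against MEF the difference was -8.55 ± 0.26 log2 for Igf2, -7.19 ± 0.33 for Igfbp4, -5.01 ± 0.32 for Igf2r and -3.23 ± 0.69 for Igfbp7 (n = 3 and 1). It was -2.16 ± 0.52 for Igfbp5, -1.71 ± 0.58 for Igfbp3 and -0.97 ± 0.27 for Igf1r. All 7 passed the test, with adjusted p between 1.3e-08 (Igf2) and 0.0351 (Igfbp3). For Igfbp4 and Igf2r, not detected on all iNSC arrays, these are falls of at least 115.8-fold and 31.7-fold. Igf1, undetected in iNSC, was at least 3.07-fold lower. Igfbp6 is left out here, because it entered the tested genes only through its detection on MEF. Of the other 9 members 8 fell, where 21.9% of all genes did, and 0 rose, where 28% did. The median of the 9 was -2.16 log2, against 0.09 over all genes. Igfbp2 did not pass the test (0.40 ± 1.16). Igfbp3 lost its call under 5 of 13 alternatives. These were leaving out iNSC replicate 3 (adjusted p = 0.0679), the deposited values, no detection filter, a fit of only these groups and median scaling (0.132). Median scaling shifted the median of all genes by 0.21 and gave 66.1% rises among called genes, against 56.1% with quantiles.

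Fibroblast and meningeal markers fell in 8 of 8 in this comparison, with a summed intensity of 411.4 to 464.3 in iNSC, against 32190 on MEF. The MEF array was not marked by fibroblast genes alone. It also detected 9 of 9 neural stem and radial glia genes, with a sum of 7565. Of the astrocyte genes it detected 5 of 6 (sum 8789), and of the oligodendrocyte lineage genes 5 of 5 (sum 2604). Neural stem and radial glia markers rose in 7 of 9 in iNSC against MEF, with 0 lower. The MEF group is 1 array and its own spread is unknown. The part of these marker genes in the members' lower levels was not tested.

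In ESC NPC against ESC, the step from pluripotent cells to neural progenitors, 4 members rose and 1 fell. Igf2 was at least 76.6-fold higher and Igfbp5 at least 86.5-fold higher, both being undetected on ESC. Igfbp4 was 10.4-fold higher (3.38 ± 0.33 log2, adjusted p = 3.6e-05) and Igfbp7 6.93-fold higher (2.79 ± 0.69, adjusted p = 0.0088). Igf2r fell by 1.63 ± 0.32 (5.87, 5.69 and 6.11 in ESC NPC, against 7.53 on ESC, adjusted p = 0.0027). Among all genes 22.2% rose and 22.5% fell, a share of 49.6% rises among called genes, against 39.5% with median scaling. Igfbp3 (1.44 ± 0.58), Igf1r (0.70 ± 0.27) and Igfbp2 (1.10 ± 1.16) did not pass, although they did when only these groups were fitted, which made 8 members. Igfbp7 lost its call without background correction (adjusted p = 0.0726). Pluripotency markers fell in 7 of 8 but stayed detected in ESC NPC, and endoderm and mesoderm markers rose in 4 of 6. Fibroblast and meningeal markers rose in 4 of 8 with 0 lower, and choroid plexus markers in 3 of 4 with 1 lower. Neural stem and radial glia markers rose in 6 of 9 with 1 lower, and astrocyte markers in 4 of 6 with 0 lower. Endothelial markers rose in 1 of 6 and fell in 3. The part of these lists was not tested.

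The in vivo arrays moved the system in both directions. In iNSC in vivo against iNSC, Igf1, undetected in culture, was at least 29.8-fold higher. Igf2 was 19.9-fold higher (4.32 ± 0.26 log2, n = 1 and 3, adjusted p = 4.1e-07), Igfbp4, detected on 1 of 3 iNSC arrays, at least 8.91-fold (3.49 ± 0.33, adjusted p = 8.3e-06), Igfbp7 5.42-fold (2.44 ± 0.69, adjusted p = 0.0103) and Igf2r, detected on 2 of 3, at least 4.44-fold (2.18 ± 0.32, adjusted p = 2.1e-04). Igfbp5 fell by 3.08 ± 0.52 (adjusted p = 4.9e-04), and Igfbp2 and Igfbp3, undetected in vivo, were at least 7.46-fold and 2.14-fold lower. That is 5 of 10 members higher, beside 33.6% of all genes, and 3 lower, beside 34.4%. Igf1r was detected in iNSC and not in vivo, with a difference of -0.15 ± 0.27 that did not pass. Its levels in iNSC lay below the in vivo detection floor, so this difference has no direction.

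In NSC in vivo against NSC, Igfbp7 was 194.8-fold higher (7.61 ± 0.69 log2, adjusted p = 6.7e-06) and Igf2, detected on 1 of 3 NSC arrays, at least 78.7-fold higher (6.50 ± 0.26, adjusted p = 3.0e-08). Igfbp4 was 6.23-fold higher (2.64 ± 0.33, adjusted p = 6.0e-05) and Igf1, undetected in culture, at least 4.24-fold higher. Igfbp5 fell by 2.38 ± 0.52 (adjusted p = 0.0025), and Igfbp2, undetected in vivo, was at least 7.23-fold lower. These 4 higher and 2 lower members stand beside 33.9% and 34.1% of all genes. Igfbp2 lost its call without background correction (-2.47, adjusted p = 0.0642), which left 5 members. Igf2r (0.25 ± 0.32), whose in vivo level of 6.47 lay just above the detection floor of 6.44, and Igfbp3 (-1.29 ± 0.58) did not pass. Igfbp3 was undetected in vivo and averaged 6.26 in NSC, below that floor, so its difference has no direction.

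Several of these calls depended on the scaling. Median scaling moved the median of all genes by -0.76 for the induced cells and by -0.84 for the NSC, and the rises among all called genes then made up 20.9% and 21.5%, against 49.4% and 49.8% with quantiles. Under it Igf1, Igf2 and Igfbp4 stayed higher in the induced cells while Igf2r (0.63, adjusted p = 0.164) and Igfbp7 (0.97, adjusted p = 0.226) lost their calls. In the NSC comparison Igf1, Igf2 and Igfbp7 stayed higher, Igfbp4 (0.88, adjusted p = 0.0613) lost its call and Igf2r turned to a called fall (-1.33, adjusted p = 0.0096). Igfbp3, undetected in vivo and without a direction above the floor, was called lower (-1.92, adjusted p = 0.0188). The second Igf2r probe differed by -0.56 in iNSC in vivo against iNSC (adjusted p = 0.0499). The second Igfbp4 probe differed by 0.19 in NSC in vivo against NSC (adjusted p = 0.425). Both were undetected in vivo and lay below the in vivo detection floor in culture, so neither difference has a direction. With only the groups compared in the fit, Igfbp7 lost its call in iNSC in vivo against iNSC (adjusted p = 0.074).

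Microglia and macrophage markers rose in 7 of 7 in both in vivo comparisons, endothelial markers in 5 of 6 and 6 of 6, pericyte markers in 5 of 6 in each, and fibroblast and meningeal markers in 7 of 8 and 6 of 8. Of the pericyte rises 2 on iNSC in vivo and 3 on NSC in vivo, and of the fibroblast and meningeal rises 5 on each, were of genes detected there, and the others lie below the lowest detected level. Neural stem and radial glia markers fell in 8 of 9 in each, of which Olig2 on NSC in vivo lay below that level in both groups. Choroid plexus markers rose in 2 of 4 in each, and Otx2 of that list fell against NSC. Of these rises, Ttr on both arrays (10.22 and 11.07) and Clic6 on NSC in vivo were detected there. Oligodendrocyte lineage markers rose in 2 of 5 in each, and 2 fell against NSC. Neuron markers rose in 3 and 2 of 6 and fell in 1 and 2. Astrocyte markers rose in 2 and 1 of 6 and fell in 4 in each. Among the called members, Igfbp5, Igfbp2 and, in the induced cells, Igfbp3 fell. Igf1, Igf2, Igfbp4, Igfbp7 and, in the induced cells, Igf2r rose. Between 33.6% and 34.4% of all genes were called in each direction, so a shared direction ties no member to a list. The part of these cell types in the members' levels was not tested.

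**Figure D4:**
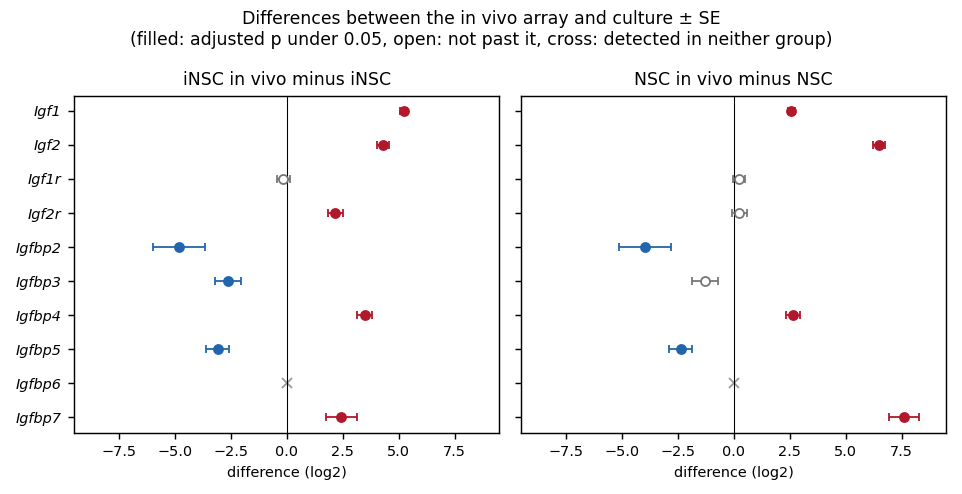
Difference in log2 level ± SE of the 10 genes between each in vivo array and its culture, with filled points past an adjusted p of 0.05, open points not past it and crosses at 0 where neither group detected the gene. Igf1, Igf2, Igfbp4 and Igfbp7 lie right of 0 in both panels, Igf1 farther in iNSC and Igfbp7 farther in NSC.

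The 2 in vivo arrays can be set side by side without a test. Of 6 members detected on at least 1 of them, Igf1 was 7.21-fold higher on iNSC in vivo than on NSC in vivo (9.82 against 6.97) and Igf2r 2.07-fold higher (7.52 against 6.47), where 13.1% of 6110 genes were at least 2-fold higher. The Igf2r difference of 1.05 log2 was under 2-fold with median scaling (0.85), without background correction (0.61) and with the mean of its probes (0.24). On the second probe it was -0.57, but neither array detected that probe, so this value has no direction. Igfbp7 was 3.97-fold lower (11.81 against 13.79) and Igf2 3.18-fold lower (9.58 against 11.25), where 12.9% of genes were at least 2-fold lower. Igfbp4 (8.16 against 8.78) and Igfbp5 (8.11 against 7.96) differed by less than 2-fold. The endothelial sum was 2926 on iNSC in vivo and 15640 on NSC in vivo, the pericyte sum 884.1 and 3348, and the choroid plexus sum 1318 and 2401. Most of the pericyte sum was Vtn (9.24 and 11.53), and most of the choroid plexus sum was Ttr (10.22 and 11.07). Only 2 and 3 of 6 pericyte genes and 1 and 2 of 4 choroid plexus genes were detected. Kcnj8 of the pericyte list was detected on iNSC in vivo (6.69) and not on NSC in vivo (5.51). The fibroblast and meningeal sum was 1996 and 1481, and the microglia and macrophage sum 7017 and 5132. Within the last list P2ry12 (8.64 against 10.16) and Tmem119 (9.45 against 10.70) were lower on iNSC in vivo, and Tyrobp, Cd14, C1qa and Aif1 were higher. These are values of 1 array each, and their part in the members' levels was not tested.

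The change from culture to in vivo was also compared between the cell types in the same fit, as the iNSC difference minus the NSC difference. Igf2r differed by 1.93 ± 0.46 log2 (2.18 for iNSC and 0.25 for NSC, adjusted p = 0.0124). Igfbp7 differed by -5.17 ± 0.97 (2.44 and 7.61, adjusted p = 0.0038) and Igf2 by -2.19 ± 0.37 (4.32 and 6.50, adjusted p = 0.0021). These are 1 member more positive, beside 13.5% of all genes, and 2 more negative, beside 14.3%. Igf1 is left out, because neither culture detected it and its term would compare 1 in vivo array with the other. The Igf2 term rests on an NSC level that 1 of 3 arrays detected, and the Igf2r term on 1 of 2 probes. By Xist and Eif2s3y the NSC in vivo array differs in sex from the cultured NSC, whereas Eif2s3y was detected in iNSC and on iNSC in vivo. The NSC difference, and so each of these terms, cannot be told apart from the sex of the cells.

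**Figure D5:**
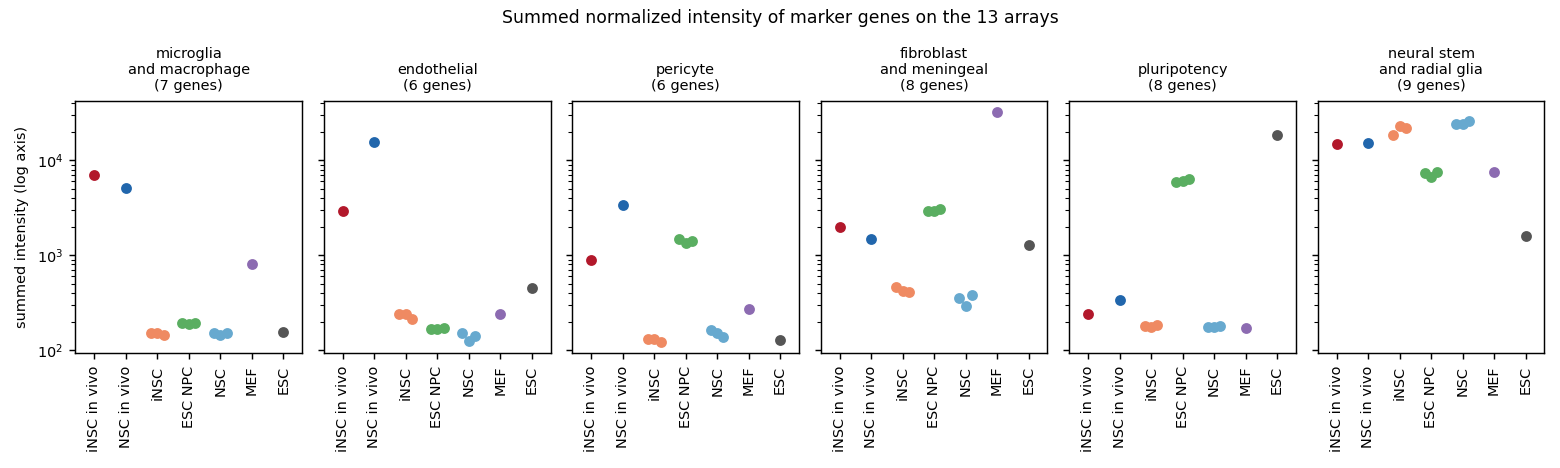
Summed normalized intensity (log axis) of 6 lists of marker genes on the 13 arrays, by group, 1 point per array. The microglia and endothelial sums are far higher on the in vivo arrays than in any neural culture, the fibroblast sum is highest on MEF at 32190, and the pluripotency sum stays high in ESC NPC at 5855 to 6401.

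Over the 9 members other than Igfbp6 the median difference was 0.39 in iNSC against NSC, 1.12 in ESC NPC against NSC and -0.39 in iNSC against ESC NPC. It was 1.44 in ESC NPC against ESC, and 2.18 and 0.25 in vivo against iNSC and NSC. The median of all genes lay between -0.04 and 0.02 in these comparisons, and none of their groups detected Igfbp6. Both in vivo medians are the difference of Igf2r, which rests on 1 of 2 probes, and with Igfbp6 they were 1.15 and 0.24. Members whose difference has no direction, such as Igf1r in vivo, are counted in these medians. The wider pathway was read from lists of genes. Of 30 IGF receptor signalling genes 20 were tested. In iNSC against NSC 2 rose and 0 fell: Foxo1, the forkhead factor that Akt keeps out of the nucleus, was 0.83 ± 0.13 log2 higher and Pik3r1, the regulatory subunit of phosphatidylinositol 3-kinase, 0.58 ± 0.16 higher. In ESC NPC against NSC 3 rose and 7 fell, with the adaptor Shc1 2.41 ± 0.17 higher, Pik3r1 lower at -2.66 ± 0.16 and Tsc2, a brake on mTOR complex signalling, lower at -1.07 ± 0.14. In iNSC against ESC NPC 6 rose and 4 fell, with Pik3r1 3.24 ± 0.16 higher. The median difference of the list was 0.05, -0.14 and -0.01 in these comparisons, against 0.01, -0.02 and 0.02 over all genes.

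Against MEF 4 of the 20 signalling genes rose and 5 fell in iNSC, led by Grb10, an imprinted adaptor that restrains the insulin and IGF receptors, at 5.67 in iNSC, against 11.29 on MEF (-5.62 ± 0.54). In ESC NPC against ESC 3 rose and 6 fell. In vivo, 8 rose and 8 fell against iNSC, and 11 rose and 8 fell against NSC, with Rheb, the GTPase that switches on mTOR complex signalling, lower in both (-2.60 ± 0.21 and -2.54 ± 0.21). Of these, 7 rises and 6 falls against iNSC and 9 rises and 7 falls against NSC can be read above the in vivo detection floor, and the others, such as the rise of the adaptor Grb2 against NSC, cannot.

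Of 8 genes for binding protein proteases and their regulators 5 were tested. Stc2, an inhibitor of pappalysins, rose in iNSC (1.24 ± 0.26) and in ESC NPC (1.75 ± 0.26) against NSC, and was the 1 gene of the list called in iNSC against NSC. The other 4 fell in ESC NPC against NSC, where the list's median was -0.71, against -0.02 over all genes. In iNSC against ESC NPC 4 of 5 rose. Among these, Htra3, a serine protease, was undetected in ESC NPC and at least 3.28-fold higher in iNSC, and its relative Htra1 was 3.03-fold higher (1.60 ± 0.43). Against MEF 1 rose, Stc2, and in ESC NPC against ESC 1 fell, Ctsd, the lysosomal protease cathepsin D. Ctsd rose in both in vivo comparisons (1.98 ± 0.22 against iNSC and 1.38 ± 0.22 against NSC). Htra3 was undetected in vivo and at least 1.01-fold lower than in iNSC. The calls of Stc2 in both, Adam12 against iNSC and Htra3 against NSC lay below the in vivo detection floor and have no direction here.

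Of 9 genes that act on Igf2 RNA or lie or act at its locus 5 were tested. Igf2bp3, which binds Igf2 mRNA, was 5.32 in iNSC, against 9.32 in NSC (-4.00 ± 0.20, adjusted p = 1.5e-06), the 1 call of the list there. In ESC NPC against NSC 4 of 5 rose, with Igf2bp1 at least 40.3-fold higher, Lin28a at least 24.0-fold higher and Igf2bp3 2.07 ± 0.20 higher, a median of 2.07 against -0.02 over all genes, and the same 4 genes fell in iNSC against ESC NPC. Igf2bp1 was 1 of the 3 that fell in iNSC against MEF (at least 3.81-fold), where Ctcf, the factor bound at the imprinting control region between Igf2 and H19, rose by 1.02 ± 0.17. Within ESC NPC against ESC, Lin28a rose by 2.37 ± 0.13 and Igf2bp1 fell by 0.99 ± 0.16. Ctcf rose in both in vivo comparisons. Igf2bp3 was undetected in vivo, at least 7.36-fold lower than in NSC, whereas its level in iNSC lay below the in vivo detection floor, so no direction can be given there. Lin28a is also a pluripotency marker.

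Of 7 insulin-related ligands, receptors and carriers 2 were tested. Igfbpl1, an IGFBP-like protein of neural progenitors, was undetected in iNSC and at least 2.02-fold lower there than in NSC. It averaged 4.86 in ESC NPC, against 5.94 in NSC (-1.08 ± 0.26). ESC NPC clones 1 and 3 (4.84 and 4.62) lay below the lowest detected level of their arrays (4.89 and 4.75), so the size of that difference is uncertain. Igfals, the subunit that stabilizes circulating IGF complexes, fell by 1.59 ± 0.12 in ESC NPC against ESC. Both were detected on 4 of 13 arrays.

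Likeness of pattern was measured as Pearson's r over the 7 group means, which share normalization and include 4 groups of 1 array. For Igf2 the closest tested genes were Tgfbr1 (0.992), Cd248 (0.99) and Col4a2 (0.965), and for Igfbp4 Dcn (0.972), Cd248 (0.97) and Igf2 itself (0.956). For Igf1 they were H2-Q8 (0.995), H2-D1 (0.991) and Unc93a (0.99). For Igfbp7 they were Arhgef25 (0.985), Vcl (0.972) and Fam114a1 (0.96), and for Igfbp5 Maged2 (0.991), Vopp1 (0.982) and Vasn (0.974). Igfbp3 was most like Nt5e (0.996), Anxa6 (0.989) and Edil3 (0.986), Igfbp2 like Smim11 (0.999), Surf4 (0.996) and Ndufa6 (0.996), and Igf2r like Cast (0.963), Susd6 (0.963) and Lif (0.957). Igf1r and Igfbp6 varied by less than 2 log2 units and were not ranked.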

How the data were processed

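Probe signal intensity per array, with a detection p-value beside each, came from the deposited table of 13 arrays (25697 probes). The authors also deposited processed series values, which by their range are log2, and these served as an alternative. Per the submitters' processing notes BeadStudio 3.2, RMA and lumi were used, in roles not given in the sources used here.

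Intensities were background-corrected by normexp from the detection p-values with an offset of 16, put on a log2 scale and quantile-normalized (limma 3.58.1, R 4.3.3, statmod 1.5.0). Named probes detected (p under 0.01) on at least 1 array were kept, and the probe with the highest mean stood for its gene, leaving 10923 genes. Of the probes, 23978 had 1 gene symbol, 1719 had none or several here, and 16 kept the platform's symbol. One limma fit of 7 groups (6 residual and 3.10 prior degrees of freedom) gave all differences, with two-sided p-values, Benjamini-Hochberg correction across the genes tested and a threshold of 0.05. The fit was tested on simulated data. The number of arrays limits the precision.

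The members, the gene and marker lists and the tests were chosen with earlier results of these data known. The rule for names covered all members, up to 4 called genes with the smallest p per list and comparison, and, for members whose group means span at least 2 log2 units, the 3 genes with the highest r over group means, with predicted genes passed over. The sex-linked genes were added after values were seen.

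Clone numbers are shared by iNSC, ESC NPC and NSC. Deviations from group means correlated at 0.211 to 0.503 for same-numbered NSC and iNSC clones (others -0.403 to 0.235), 0.036 to 0.115 for iNSC and ESC NPC, and -0.042 to -0.009 for NSC and ESC NPC. The first pair meets the rule for pairing, although no label says what a number shares, and the fit with the number as a block is given beside the results it changes. Alternatives were no background correction, median scaling, deposited values, other detection filters, the mean of a gene's probes or each probe alone, a trended prior, fewer groups, the block, and leaving out each clone.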

Additional observations from a re-analysis of the deposited data

Results flagged for a closer look

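The change from culture to in vivo differed between iNSC and NSC for 3 genes by the test of the difference itself. It was -2.19 log2 for Igf2 (adjusted p = 0.0021), which 1 of 3 NSC arrays detected, 1.93 for Igf2r (0.0124) and -5.17 for Igfbp7 (0.0038), as the iNSC change minus the NSC change. Each change uses 1 in vivo array, whose own spread is borrowed from the clones. The NSC in vivo array differs in sex from the cultured NSC by Xist and Eif2s3y, so the NSC change cannot be told apart from the sex of the cells. The endothelial sum was 2926 on iNSC in vivo and 15640 on NSC in vivo, and the microglia and macrophage sum 7017 and 5132, and their part in these differences was not tested. The Igf2r difference was 0.78 (adjusted p = 0.163) with the mean of both probes and -0.36 (0.47) on the second probe. Neither in vivo array detected the second probe, so the latter value has no direction.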

How the results depend on the processing

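Of 70 member differences tested, leaving out Igfbp6 against MEF and the Igf1 term of the iNSC change minus the NSC change, 34 kept their direction and side of the threshold under every alternative run, and of the 43 called 31 stayed called in the same direction throughout. The number of members called changed by more than 1.5 times in 2 comparisons. It was 2 in iNSC against NSC with the deposited series values and with only those groups fitted, against 4, and 8 in ESC NPC against ESC with only those groups fitted, against 5. Fitting clone number as a replicate block gave 6 members for iNSC against NSC, 7 for ESC NPC against NSC and 3 for iNSC against ESC NPC, and the block changed no call but those of Igf2 and Igf1r in the first and Igf1r in the second (adjusted p = 0.0223). Median scaling turned Igfbp2 (0.022) and Igfbp5 (0.12) in iNSC against ESC NPC and Igf1r (-0.23) and Igf2r (-1.33) in NSC in vivo against NSC, the last of these a called fall. The second probe turned Igfbp2 in iNSC against NSC (-0.024). For Igf2r the second probe gave the other sign in iNSC in vivo against iNSC (-0.56) and in the iNSC change minus the NSC change (-0.36). It also did so in iNSC in vivo against NSC in vivo (-0.57). Neither in vivo array detected that Igf2r probe, so these values have no direction. Leaving out single clones turned only differences that had not passed. Igfbp2 then ranged from -0.81 to 1.04 in iNSC against NSC, -0.076 to 0.94 in ESC NPC against NSC, -1.33 to 0.52 in iNSC against ESC NPC, -0.52 to 1.33 in iNSC against MEF and -1.77 to 0.072 in the iNSC change minus the NSC change. In iNSC against ESC NPC, Igf1r ranged from -0.10 to 0.22 and Igfbp3 from -0.38 to 0.57, and Igf1r ranged from -0.22 to 0.0058 in iNSC in vivo against iNSC. Apart from the second probes and fits with fewer arrays, the cause was not tested. A group of 1 array has no spread of its own, and levels under the lowest detected one (4.60 to 5.05 in culture, 6.50 on iNSC in vivo, 6.44 on NSC in vivo) have no order.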
